A study of Mus musculus with 2 samples.

Results

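Microglia, the resident macrophages of the brain, were followed through 37 of their genes in ventral midbrain RNA from 2-month-old mice. The genes were chosen by symbol as known markers of microglia and of innate immunity, and each of the 37 symbols matched 1 of the 31252 gene rows. Of the 37, 34 averaged 10 counts or more across both libraries and are called tested genes below, among 15246 such genes in all. With 1 library per group this means that a fold change was computed, not a statistical test. Il1b, Tnf and Ccl3 did not reach that mean.

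The samples were 1 Ctrl library and 1 OE library of whole ventral midbrain, from mice of an incipient congenic C57BL/6 strain. By the study's methods, Ctrl mice carried Slc6a3-Cre, which drives Cre recombinase from the dopamine transporter gene, and OE mice also carried CAG-S-COUP-TFII at the ROSA26 locus, so that Cre switches on COUP-TFII in dopaminergic neurons and not in microglia. The labels give dopaminergic neurons as the cell type, but the tissue was not sorted and holds other neurons, glia and vessels. In the cross that those methods describe, Ctrl and OE pups share a ROSA26-tdTomato reporter and a floxed Tfam allele, which Cre deletes on 1 chromosome of dopaminergic neurons. The labels give neither these alleles for the libraries nor the number or sex of the mice behind each one.

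With 1 library per group, no difference below has a replicate check. Intervals given with fold changes are 95% Clopper-Pearson intervals, which take a gene's total as fixed and ask how it divides between both libraries. They cover counting error only, so they compare these libraries and not the genotypes. Total counts were 16984336 for Ctrl and 21326632 for OE. Nr2f2, the gene of COUP-TFII and the one overexpressed, went against the labels, with 637 counts for Ctrl, 377 for OE and a log2 fold change of -1.07 (interval -1.26 to -0.88). For this reason they are called the Ctrl-labelled and the OE-labelled library throughout, in that order wherever a pair of values is given. Every direction rests on labels that their own target gene does not bear out in whole tissue. The study measured the overexpression in isolated dopaminergic neurons, which is an unlike measure. The part of other cells in the value of Nr2f2 was not tested. Markers of dopaminergic neurons, such as Th (1.59), and of thalamic neurons, such as Tcf7l2 (-2.78), also stood far apart between the libraries on the log2 scale.

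Microglia sense their surroundings through purinergic, chemokine and lectin-like receptors, and depend for survival on the growth factor receptor encoded by Csf1r. They make the C1q chains that tag synapses and debris for complement, and signal through the adaptor DAP12, encoded by Tyrobp, when receptors such as TREM2 bind lipids or debris. The transcription factor PU.1, encoded by Spi1, with IRF8, sets up the myeloid programme on which most of these genes depend. When microglia respond to injury, surface markers of the resting state commonly decline while complement, lysosomal and cytokine genes go up.

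PU.1 binds DNA around the letters GAGGAA, and promoter windows of the genes were searched for these letters on both strands. RefSeq promoter sequence (GRCm38.p6), running from 250 bases before to 50 bases after the start of each gene, was found for 26 of the 37 genes. The letters occurred in the windows of 16 of these 26 genes, or 61.5%, and of 8446 of all 27025 genes with a window, or 31.3%. Stretches of 4 promoters are shown because their genes are described below: Itgam, P2ry13 and Fcrls had counting intervals on 1 side of 0, and C1qb did not. Capitals mark GAGGAA and each stretch reads along the strand of its gene. They lie at chr7:128062526-128062591 (plus strand) for Itgam, chr3:59210895-59210960 (minus) for P2ry13, chr3:87263633-87263698 (minus) for Fcrls and chr4:136886201-136886260 (minus) for C1qb.
Itgam: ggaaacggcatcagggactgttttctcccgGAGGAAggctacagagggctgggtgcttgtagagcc
P2ry13: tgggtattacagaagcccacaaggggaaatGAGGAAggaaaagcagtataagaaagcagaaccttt
Fcrls: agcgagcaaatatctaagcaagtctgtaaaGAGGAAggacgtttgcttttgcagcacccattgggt
C1qb: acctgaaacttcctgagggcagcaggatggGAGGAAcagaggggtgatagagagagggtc
The last capital lies 79 bases before the annotated start of Itgam, 43 before that of P2ry13, 139 before that of Fcrls and 25 before that of C1qb. Such a match is a description of sequence and does not show that PU.1 binds there. Among tested genes, 10 of the 14 with the letters and 5 of the 9 with a window without them were lower in the OE-labelled library by more than log2 0.2, and 0 and 2 were higher. Over all tested genes, 16.8% with the letters and 14.8% of those with a window without them were lower, and 15.7% and 17.5% were higher.

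Most of the 34 tested genes were lower in the OE-labelled library. A threshold of log2 0.2, the one that the study's methods use, was passed by 22 genes on the lower side, or 64.7%, and by 3 on the higher side. Over all 15246 tested genes, 16.6% were lower and 17.9% higher by as much. Where the counting interval also had to lie on that side of 0, 13 of the 34 were lower, or 38.2%, and 1 was higher, against 9.16% and 9.90% of all tested genes. Restricting all genes to the range of mean counts that the 34 spanned, from 28.5 to 1340.5, gave 10.2% lower and 11.0% higher by the same rule. On the log2 scale the 34 fold changes had a median of -0.35, against 0.0046 over all tested genes. Fewer microglia and less RNA per microglial cell cannot be told apart in bulk tissue.

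**Figure D1:**
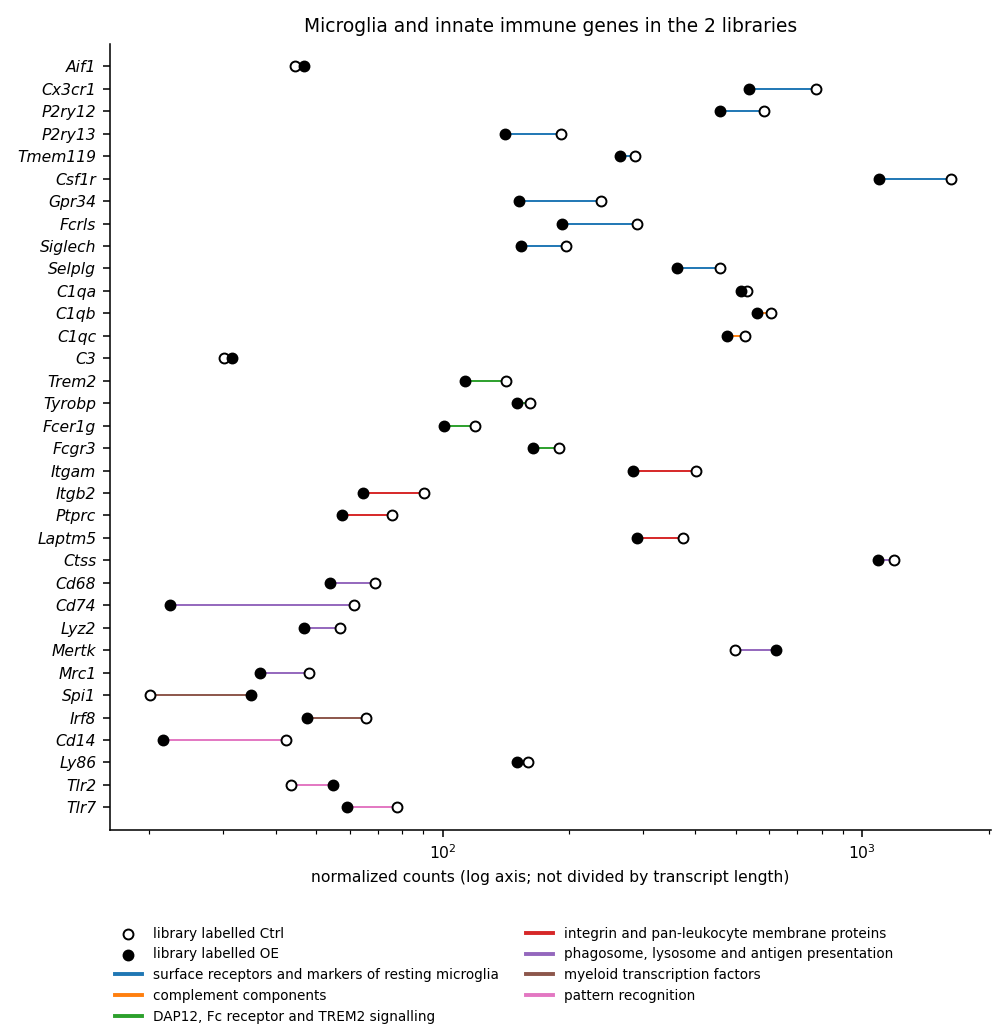
Normalized counts (log axis) of the 34 tested microglia and innate immune genes in the Ctrl-labelled library (open circles) and the OE-labelled library (filled circles), with lines coloured by role. In 29 of the 34 genes the filled circle lies to the left of the open one.

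Surface receptors and markers of resting microglia were mostly lower in the OE-labelled library. Of 10 such genes, 8 were lower by more than log2 0.2, and all 8 had intervals below 0. Csf1r, the receptor for the growth factors CSF1 and IL-34, had 1460 counts in the Ctrl-labelled library and 1221 in the OE-labelled library, which are 1627 and 1095 after scaling for depth. Its log2 fold change was -0.57 (interval -0.68 to -0.46). Cx3cr1, the receptor through which microglia receive neuronal fractalkine, had 695 and 597 counts, or 775 and 536 normalized counts, with a log2 difference of -0.53 (interval -0.69 to -0.37). Both genes thus had fewer counts in the deeper library, before any scaling.

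Purinergic and orphan receptors followed the same direction. P2ry12, which steers microglial processes towards ATP and ADP, had 523 and 509 counts (583 and 457 normalized) and a log2 fold change of -0.35 (interval -0.53 to -0.17). Its neighbour on chromosome 3, P2ry13, another ADP receptor, had 172 and 157 counts and a difference of -0.44 (interval -0.77 to -0.12). For Gpr34, a lysophosphatidylserine receptor, there were 214 counts in the Ctrl-labelled library and 169 in the OE-labelled library, a difference of -0.65 (interval -0.95 to -0.36). These 3 intervals overlap one another, and whether the genes were unlike in how far they differed was not tested.

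Among the remaining markers of this group, Fcrls, an Fc receptor-like protein, had 261 and 215 counts and differed by -0.59 (interval -0.86 to -0.33). Siglech, a sialic acid-binding lectin, had 176 and 171 counts and differed by -0.35 (interval -0.67 to -0.043). Selplg, the ligand of P-selectin, had 411 and 403 counts and differed by -0.34 (interval -0.54 to -0.14). The other two markers did not pass log2 0.2. Tmem119, a membrane protein used to tell microglia from other macrophages, had 258 and 295 counts and a difference of -0.12 (interval -0.37 to 0.13). Aif1, which encodes the actin-binding protein IBA1, had 40 and 52 counts and a difference of 0.065, with an interval from -0.56 to 0.70. Both intervals overlap those of P2ry12, P2ry13 and Siglech. The interval of Tmem119 lies above those of Csf1r and Cx3cr1, which sets it apart from these genes, and overlaps those of the others of the 8. That of Aif1 is wider and overlaps all 8. Overlap of intervals does not show that genes differed by like amounts, and differences between genes were not tested.

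Complement genes lay nearer to 0. C1qa, C1qb and C1qc encode the chains of C1q and lie beside each other on chromosome 4, between positions 136880129 and 136898803 (GRCm38). C1qa had 477 counts in the Ctrl-labelled library and 572 in the OE-labelled library, or 532 and 513 normalized counts, a log2 fold change of -0.051 (interval -0.23 to 0.13). C1qb had 542 and 626 counts and differed by -0.11 (interval -0.27 to 0.063), and C1qc had 472 and 531 counts and differed by -0.14 (interval -0.32 to 0.039). No C1q chain passed log2 0.2, but with the median of genes of like transcript length taken off, C1qb (-0.20) and C1qc (-0.24) did. C3, the central complement protein, had 27 and 35 counts, and a difference was not detectable at this depth (0.060, interval -0.70 to 0.84).

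Summed over genes, the contrast between resting-state receptors and C1q was larger than counting error. The 10 surface markers together had 4210 and 3789 counts, a pooled log2 fold change of -0.47 (interval -0.53 to -0.40), and -0.41 (interval -0.49 to -0.33) without Csf1r, the most abundant of them. The 3 C1q chains together had 1491 and 1729 counts, a pooled log2 difference of -0.10 (interval -0.20 to 0.0013). The intervals of the pooled values do not overlap, and without replicates this says only that the 2 libraries differ in the ratio of these transcripts. The gap was smaller with the like-length median taken off, when the median was -0.42 over the 10 markers and -0.20 over the C1q chains, against -0.40 and -0.11 before.

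Genes of DAP12, Fc receptor and TREM2 signalling had a median log2 fold change of -0.23, between the medians of the markers and of C1q. Trem2 had 127 and 126 counts and a log2 fold change of -0.32 (interval -0.69 to 0.042), and Tyrobp, its adaptor, had 145 and 168 counts and a difference of -0.10 (interval -0.43 to 0.23). Fcer1g, the common gamma chain of Fc receptors, had 107 and 112 counts and a difference of -0.25 (interval -0.64 to 0.15). Fcgr3, a low-affinity receptor for IgG, had 169.6 and 182.65 expected counts, which are not whole because RSEM, the program that made the counts, divides reads that match more than 1 gene. Its log2 difference was -0.21 (interval -0.52 to 0.10). All 4 values were negative, and each interval alone held 0, while the sum of the 4 genes differed by -0.21 (interval -0.38 to -0.041). The interval of the sum overlaps the pooled one of the C1q chains, and a difference between these groups was not tested. With the like-length median taken off, the median of the 4 was -0.32, and the interval of Trem2 (-0.42, interval -0.79 to -0.056) no longer held 0.

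Integrin and pan-leukocyte genes were lower in the OE-labelled library for all 4 members. Itgam, the alpha chain of complement receptor 3 (CD11b), had 360 and 316 counts, or 401 and 283 normalized counts, and a log2 fold change of -0.50 (interval -0.72 to -0.28). Itgb2, the beta chain that pairs with it, had 81 and 72 counts and a difference of -0.48 (interval -0.96 to -0.0071). These intervals overlap, and that of Itgb2 is too wide to tell whether the paired chains differed by similar amounts. Laptm5, a lysosomal protein of leukocytes, differed by -0.37 (interval -0.59 to -0.14), and Ptprc, which encodes CD45, had 68 and 64 counts and differed by -0.40 (interval -0.92 to 0.11).

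**Figure D2:**
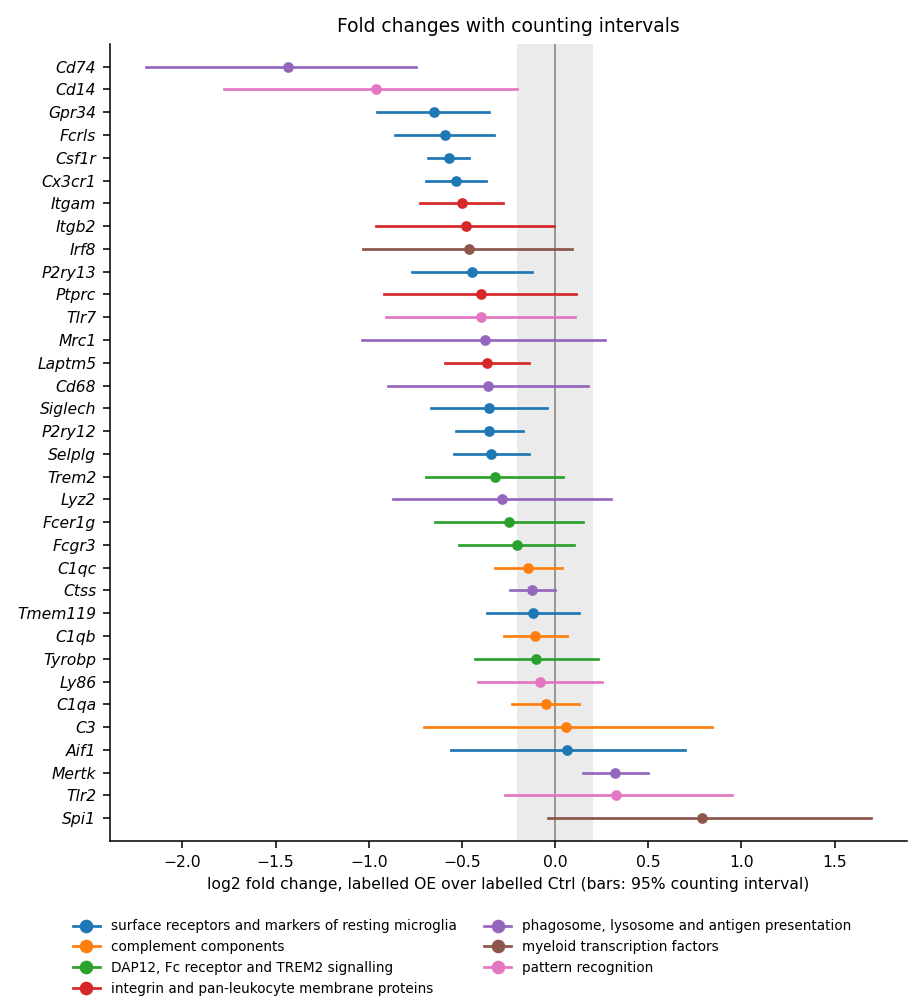
Log2 fold changes (OE-labelled over Ctrl-labelled) of the 34 tested genes in order of size, coloured by role. Bars are 95% counting intervals and the grey band marks log2 -0.2 to 0.2. Mertk is the only gene with an interval above 0, and 13 genes past the band have intervals below 0.

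Genes of the phagosome, the lysosome and antigen presentation went in both directions. Ctss, cathepsin S, was the most abundant member per kilobase of transcript in both libraries, at 876 and 805 normalized counts per kilobase. It had 1065 and 1216 counts and a log2 fold change of -0.12 (interval -0.24 to -0.0019), below the threshold. Cd68, a lysosomal glycoprotein of macrophages, had 62 and 60 counts and a difference of -0.36 (interval -0.90 to 0.18), and Lyz2, a lysozyme of myeloid cells, had 51 and 52 counts and a difference of -0.28 (interval -0.87 to 0.30). Neither difference was detectable at this depth.

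Cd74, the invariant chain that chaperones MHC class II, differed most of the 34 genes. It had 55 counts in the Ctrl-labelled library and 25 in the OE-labelled library, a log2 fold change of -1.43 (interval -2.19 to -0.74). Whether 4 class II genes of low counts differed could not be told at their depth. H2-Aa had 11 and 12 counts, H2-Ab1 had 7 and 11, H2-Eb1 had 14 and 19, and H2-DMb1 had 22 and 14.57, and the interval of each overlaps that of Cd74. These 4 genes were chosen after their values were seen. H2-DMa, another class II gene, had more counts, 68 and 115, and a log2 fold change of 0.44 (interval -0.00014 to 0.90). Its interval holds 0 and lies above that of Cd74. Cd74 is also made outside microglia. The 12 genes of border-associated macrophages had a pooled log2 difference of -0.30 (interval -0.51 to -0.093). Of the 5 choroid plexus genes, Ttr had 426 and 67 counts, Kl 60 and 39, Folr1 10 and 4, Clic6 62 and 90, and Aqp1 3 and 9, and the pooled log2 difference was -1.74 with Ttr and -0.24 (interval -0.59 to 0.11) without it. The 11 markers of endothelial and mural cells had a median of -0.23 and a pooled log2 difference of -0.24 (interval -0.29 to -0.19). Acta2, of vessel walls, was the lowest of them, with 435 and 276 counts (-0.97), and Ly6c1 the highest (0.19). The part of such cells and tissue in the value of Cd74 was not tested.

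Mertk, a receptor kinase for the uptake of dying cells, was the exception among the abundant genes. It had 446 counts in the Ctrl-labelled library and 694 in the OE-labelled library, or 497 and 623 normalized counts, and a log2 fold change of 0.32 (interval 0.15 to 0.50). Its bridging ligand Gas6 had 2018 and 2460 counts and a difference of -0.028 (interval -0.11 to 0.058). Astrocytes also make Mertk, and the 10 astrocyte markers had a median of -0.065, with 0 higher and 1 lower past log2 0.2. Over all tested genes, 17.9% were higher and 16.6% lower by as much. Mrc1, the mannose receptor, which in brain marks macrophages along vessels and in the meninges more than microglia, had 43 and 41 counts and a difference of -0.38 (interval -1.04 to 0.27).

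The 2 transcription factors had opposite signs at low counts. Spi1 had 18 counts in the Ctrl-labelled library and 39 in the OE-labelled library, a log2 fold change of 0.79 with an interval from -0.038 to 1.70. Irf8 had 59 and 53 counts and a difference of -0.46, with an interval from -1.03 to 0.092. Neither interval excludes 0. The intervals of Spi1 and of Csf1r, a well known target of PU.1, do not overlap.

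Among genes of pattern recognition, Cd14, the co-receptor for bacterial lipopolysaccharide, had 38 and 24 counts and a log2 fold change of -0.96 (interval -1.78 to -0.20). Tlr7, an endosomal sensor of single-stranded RNA, had 70 and 66 counts and a difference of -0.40 (interval -0.91 to 0.11). Tlr2, which recognizes bacterial lipoproteins, had 39 and 61 counts and a difference of 0.33 (interval -0.27 to 0.95), and Ly86, which encodes MD-1, had 143 and 168 counts and a difference of -0.081 (interval -0.41 to 0.25). Only Cd14 of these 4 genes had an interval that excluded 0.

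The 3 cytokine and chemokine members were at or near 0 in both libraries. Il1b had 0 counts in each. Tnf had 1 and 2 counts, and Ccl3, a chemokine, had 3 and 3. At these depths a count of 0 allows up to 3 counts in a library, so a difference in these genes was not detectable. Of 17 other cytokines, chemokines and receptors of either, 5 reached the mean of 10 counts, and 2 of these were lower and 0 higher past log2 0.2. Over all tested genes, 16.6% were lower and 17.9% higher. The most abundant, the cytokine Il18, had 309 and 360 counts and differed by -0.093 (interval -0.32 to 0.13).

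Levels were next compared between genes per kilobase of the GENCODE M21 transcript. After Ctss, the next 3 places belonged to C1qb (555 and 516 normalized counts per kilobase), C1qa (511 and 493) and C1qc (437 and 396), followed by Csf1r (421 and 283), in both libraries. C3 was the lowest of the 34 tested genes, at 5.86 and 6.11. Mertk went from place 18 of 37 in the Ctrl-labelled library to place 10, and Cd74 from place 24 to place 29. Defining markers of microglia were thus present in both libraries at like ranks, with P2ry12 in place 7 in each.

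Transcript length moved with the fold changes over all genes. In the eighth of tested genes with the shortest transcripts, up to 1434 bases, the median log2 fold change was 0.098, and in the eighth with the longest it was -0.044. Among the 34 genes, Spearman's rho between length and fold change was -0.33, and over the 13874 tested genes with a known length it was -0.18. These are descriptions of 2 libraries in which all points share the same depth and tissue. Of the 34 genes, 13, C1q and Tyrobp among them, lie in the shortest eighth and had a median of -0.14. The part of transcript length in the fold changes of single genes was not tested. With the median of genes of like length taken off, a choice made after the data were seen, 25 of the 34 genes were lower past log2 0.2 and 3 were higher, and the median was -0.37. The share of all genes past log2 0.2 after this step was not computed.

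**Figure D3:**
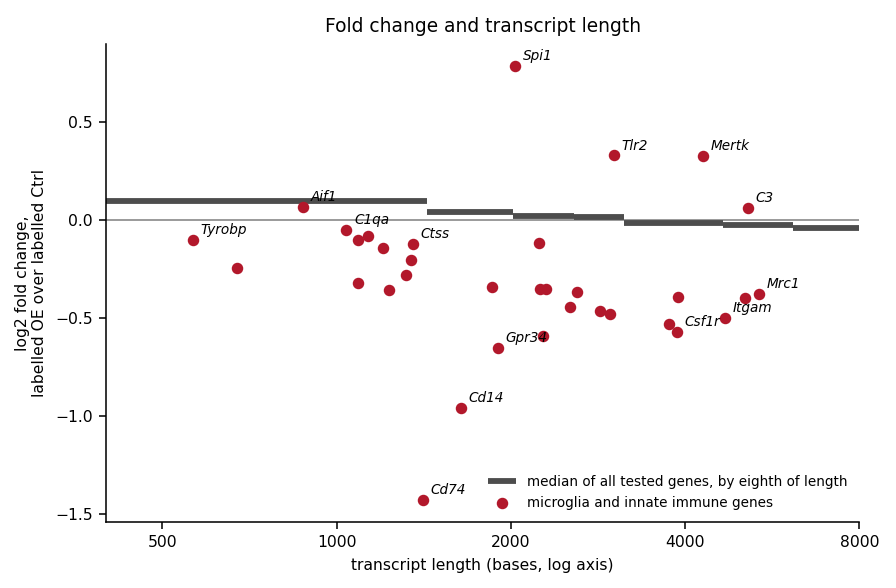
Log2 fold change (OE-labelled over Ctrl-labelled) against transcript length (log axis) for the 34 tested genes (points), with the median of all tested genes in each eighth of length (grey bars, the first and last cut at the axis limits). The bars go from 0.098 to -0.044, and 29 of the 34 points lie below 0.

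Other genes of microglia and of innate immunity were taken from lists that the 37 genes do not share. Of 38 tested further microglia genes, 17 were lower (44.7%) and 4 higher (10.5%) past log2 0.2 in the OE-labelled library, with a median of -0.14. Over all tested genes the shares were 16.6% and 17.9%. Inpp5d, a lipid phosphatase that restrains signalling below DAP12, had 215 and 191 counts and a log2 fold change of -0.48 (interval -0.77 to -0.20). Bin2 went the other way, with 50 and 97 counts and a difference of 0.64 (interval 0.14 to 1.17).

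Genes known from disease-associated microglia had no common direction. Of 13 tested, 5 were higher (38.5%) and 1 was lower (7.69%) past log2 0.2, with a median of 0.030. The shares of all tested genes were 17.9% and 16.6%. Lpl, lipoprotein lipase, had 50.55 and 198.59 expected counts and a log2 fold change of 1.65 (interval 1.20 to 2.12). Spp1, osteopontin, had 882 and 1907 counts (0.80, interval 0.68 to 0.92), and Apoe had 14518 and 21672 (0.26, interval 0.23 to 0.30). Cd9, a tetraspanin, was lower, with 1040 and 1020 counts (-0.34, interval -0.47 to -0.22). Neurons or other glia also make Lpl, Spp1, Apoe and Cd9. Clec7a, which is largely confined to responding microglia in brain, had 0 counts in both libraries, and Cst7 and Itgax had at most 4. Of the same list, Lgals3 had 5 and 3 counts and Ch25h 6 and 0. Gpnmb had 18 and 27 counts (0.27, interval -0.64 to 1.22). These genes of low counts were picked out after their values were seen.

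In the complement cascade beyond C1q and C3, 3 of 13 tested genes were lower (23.1%) and 2 higher (15.4%) past log2 0.2. These shares are near the 16.6% and 17.9% of all tested genes. Cd55 and Cd59a, membrane inhibitors of the cascade, were higher, at log2 0.38 for Cd55 (interval 0.037 to 0.73) and 0.23 for Cd59a (interval 0.058 to 0.41). C3ar1, the receptor for a fragment of C3, had 42 and 23 counts (-1.16, interval -1.98 to -0.42), and was named after its value was seen.

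Among other innate sensors and their adaptors, 13 of 26 tested genes were lower and 2 higher past log2 0.2, with a median of -0.18. The shares of all tested genes were 16.6% lower and 17.9% higher. But where the counting interval also had to lie on that side of 0, 2 of the 26 were lower, or 7.69%, and 1 was higher. By that rule 9.16% of all tested genes were lower and 9.90% higher, so this list did not stand out by it. Tlr3, a sensor of double-stranded RNA, had 369 and 339 counts (-0.43, interval -0.65 to -0.22), and Tmem173, which encodes STING, had 66 and 55 (-0.57, interval -1.12 to -0.038). Nfkbia, the inhibitor of NF-κB, had 319 and 596 counts (0.59, interval 0.39 to 0.79). Of 14 interferon-stimulated genes, 7 were lower and 1 higher, with a median of -0.22, and by the interval rule 3 were lower (21.4%) and 0 higher. Ifitm3 differed by -0.46 (interval -0.81 to -0.11) from 144 counts to 130. Antigen presentation had 3 of 13 genes lower and 3 higher (23.1% each), near the shares of all tested genes. B2m, the light chain of MHC class I, was at -0.12 (interval -0.22 to -0.0096).

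Markers of infiltrating blood leukocytes were near 0, and those of border macrophages were few. Of 11 monocyte and neutrophil genes with a row, 5 were at 0 in both libraries, Ly6c2 and S100a8 among them, and the list summed to 4 and 13.06 counts. Of 15 lymphocyte genes, 4 were at 0 in both, Cd3g and Cd8a among them, and the list summed to 20 and 27 counts. Border-associated macrophage genes summed to 380 and 383 counts, of which Stab1 held 255 and 259, and Cd163 had 19 and 27. Scaled for depth, this list had 424 and 344 normalized counts, a pooled log2 difference of -0.30 (interval -0.51 to -0.093). Without Stab1 the difference was -0.32 (interval -0.69 to 0.045). The 37 genes had a pooled difference of a like size, -0.28 (interval -0.32 to -0.24). The counts of these 3 lists were thus small beside the 9215 and 9421 counts of the 37 genes.

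Lists of other brain cells differed in several directions between the 2 libraries. All 12 oligodendrocyte markers were below 0 with a median of -0.32, and 9 were lower past log2 0.2, while their summed level went from 401749 to 335755 normalized counts. Of 11 markers of endothelial and mural cells, 7 were lower and 0 higher, with a median of -0.23 and a summed level of 8284 and 7012. Dopaminergic markers had 11 of 11 genes higher with a median of 1.23 (27569 and 63986 normalized counts in sum), and thalamic markers 9 of 9 lower with a median of -1.60 (11199 and 4137). Neurons in general had 3 of 8 markers higher and 1 lower, precursors of oligodendrocytes 1 of 5 each way, and erythroid cells 1 of 4 higher. Over all tested genes, 16.6% were lower and 17.9% higher past log2 0.2. The 37 genes summed to 10271 and 8452 normalized counts. The part of these differences in tissue make-up in the values of the microglia genes was not tested, and with 1 piece of tissue per label it cannot be told apart from the genotype.

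**Figure D4:**
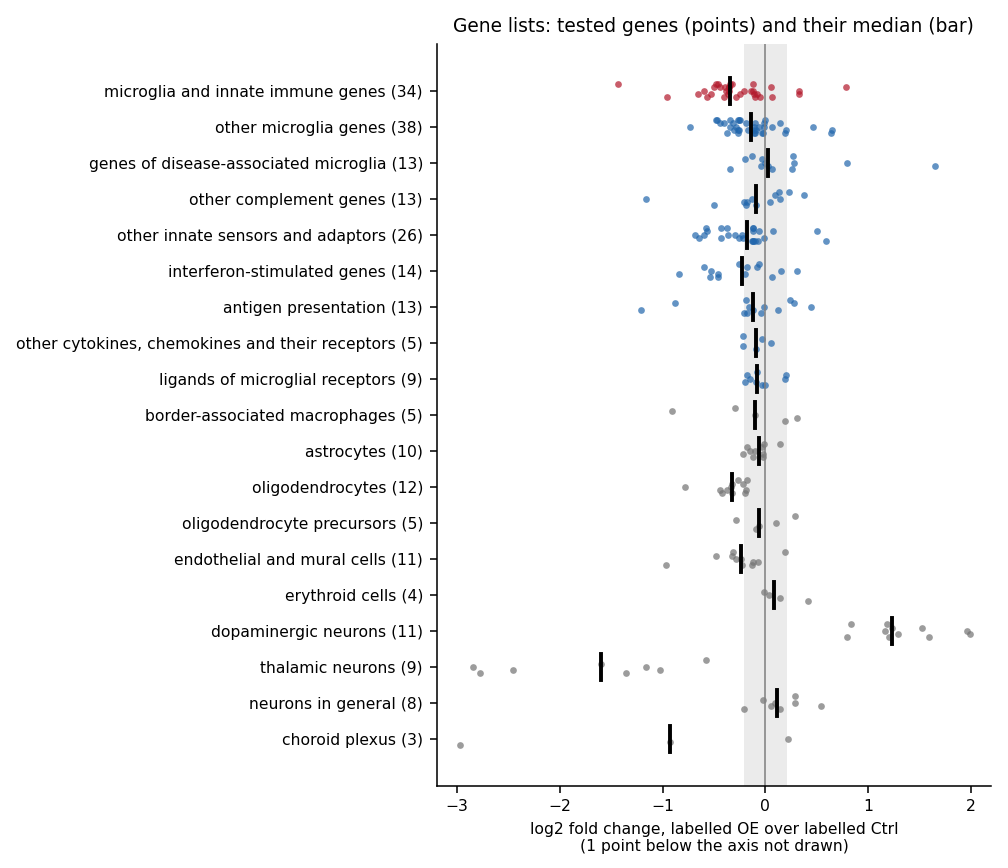
Log2 fold changes (OE-labelled over Ctrl-labelled) of the tested genes in each list (points; number tested in parentheses) with the list's median (black bar). The grey band marks log2 -0.2 to 0.2, and 1 thalamic gene lies beyond the axis. The median of the 34 microglia and innate immune genes, -0.35, lies close to that of oligodendrocyte markers, -0.32, and astrocyte markers have -0.065.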

How the data were processed

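Frozen ventral midbrain went to a contract laboratory for stranded mRNA libraries, paired reads of 50 bp and the laboratory's pipeline. The table that the authors deposited holds unscaled RSEM expected counts for 31252 gene rows. The submitters' processing notes name mm10. The aligner, the RSEM version and the annotation are not given in the sources used here. Columns were matched to samples by the number in their labels. Of the values, 95.4% are whole numbers.

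Library sizes were scaled with TMM factors of 1.01 and 0.995 (edgeR 4.0.16, R 4.3.3) and set to a common geometric mean, which gives normalized counts. For genes averaging 10 counts or more, 0.5 was added to each normalized count before log2 ratios were taken. Intervals used counts rounded to whole numbers (Python 3.11.15 with pandas 2.3.3, scipy 1.17.1 and numpy 2.4.6). No p-value was computed. The methods were tested on simulated data.

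The genes and lists were chosen with earlier results of these data known. Genes named beyond the 37 were the up to 4 most abundant of each list and the up to 4 with the largest fold changes among those with a mean of at least 50 counts, besides Nr2f2, markers at or near 0 and those said to be picked later. Some genes that this rule names are not reported here. Values of genes with close copies, such as Fcgr3 and Lyz2, are uncertain where RSEM divided shared reads. Lengths came from GENCODE M21 (GRCm38), as the longest transcript with a RefSeq link or else the longest, for 13874 of 15246 tested genes. Alternatives were scaling by total counts, the upper quartile or DESeq2 1.42.0 size factors, a pseudocount of 5, other count minimums and thresholds, fewer genes, and transcript length. Figures were drawn with matplotlib 3.10.9.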

Additional observations from a re-analysis of the deposited data

How the results depend on the processing

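No paired analysis was possible because neither group has a replicate library. Scaling by total counts, the upper quartile or DESeq2 size factors, a pseudocount of 5 and the inclusion of genes with any count left 21 to 23 genes lower and 3 or 4 higher past log2 0.2, and the median of the genes ranged from -0.37 to -0.32 over all its alternatives. The median over all genes lay between -0.011 and 0.018 under these scalings. With a mean of at least 100 counts, 13 genes were lower and 1 was higher, since fewer genes were tested. Past log2 0.5 the counts were 7 lower and 1 higher, and past log2 1 they were 1 and 0. With the interval rule these were 7 and 0 past log2 0.5, and 1 and 0 past log2 1. Shares over all genes were not computed for the other scalings, pseudocount, thresholds and count minimums, so these counts cannot be read against them. Without the 8 genes that other cells also make, 0 were higher by the interval rule, because Mertk was among the 8. All 140 values of single genes under another scaling or pseudocount moved by less than their counting error. Over the other lists, 96 of 113 medians and 198 of 226 counts moved little, and 17 and 28 moved more. The median of disease-associated genes went from 0.030 to -0.032 with any count included, where 5 were higher and 5 lower, and the ligands went from 1 higher and 0 lower to 0 and 1 with total counts. Genes under about 100 counts had intervals wider than most differences here, which limits what can be said of Aif1, Spi1, Irf8, Tlr2 and the cytokines.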

Other observations

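Ligands that reach microglial receptors were compared from a separate list of 9 genes, made mostly by neurons and other glia. Of these, 1 was higher past log2 0.2 in the OE-labelled library, 0 were lower, and their median log2 fold change was -0.076. The shares of all tested genes were 17.9% higher and 16.6% lower. The tally of ligands depends on the scaling: 0 were higher and 1 lower with total counts, and 2 higher and 0 lower with the upper quartile. Cd200, a neuronal protein that restrains microglia, had 2897 counts in the Ctrl-labelled library and 4143 in the OE-labelled library (0.20, interval 0.13 to 0.27). Cx3cl1, the ligand of Cx3cr1, had 3826 and 4301 counts (-0.14, interval -0.21 to -0.081), and its interval lies above that of its receptor (-0.69 to -0.37). Il34, a ligand of Csf1r, had 346 and 375 counts (-0.20, interval -0.41 to 0.018). The ligands were thus nearer to 0 than the receptors Csf1r and Cx3cr1 in these 2 libraries.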
